A study of Mus musculus with 12 samples.

Results

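The comparison was between RAW 264.7 cells that received extracellular vesicles (EVs) loaded with the miR-142-5p mimic and RAW 264.7 cells that received EVs loaded with a control mimic. Members were chosen by sample title: 6 of the 12 libraries of the series, 3 labelled miR-142 (miR-142-5p-EVs) and 3 labelled control (ctrl-EVs), numbered 1 to 3 in each group, and each miR-142-5p-EV library was set against the ctrl-EV library of its own number. RAW 264.7 is an established mouse macrophage line, and the EVs came from MS-1, an established mouse endothelial line. All cells, the controls included, received electroporated EVs at 3 µg protein/ml for 48 h, so that loading, vesicle and dose were shared and the mimic differed; the study's methods name the control mimic as cel-miR-67, a miRNA of a worm. What a shared number stands for is not stated, each group is 1 cell line, and the methods state only in general that experiments were repeated, without saying whether these 3 libraries came from separate cultures, so the p-values measure the spread between libraries, which may be technical.

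miR-142-5p is one arm of a hairpin that is abundant in blood cells, macrophages among them. A miRNA is loaded into an Argonaute protein and pairs through its seed, bases 2 to 8 from the 5′ end, with complementary sites in the 3′ UTR of mRNAs, which are then degraded or translated less. Macrophages treated with such vesicles are commonly scored for an inflammatory state, called M1 and marked by genes such as Nos2 and Il1b, and for an alternative state, called M2 and marked by Arg1.

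The mature sequence is shown first because the sites below are read from it. The RefSeq entry for mmu-miR-142a-5p lies at chr11:87756867-87756887 on the plus strand (GRCm38.p6) and has 21 nt, with the seed in capitals.
mmu-miR-142a-5p: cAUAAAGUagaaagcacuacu

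The letters searched in 3′ UTRs, on the transcribed strand, were ACTTTATA (an 8-nt site, complementary to the seed and followed by an A), ACTTTAT (a 7-nt site complementary to the seed) and CTTTATA (a 7-nt site to bases 2 to 7 followed by an A). An 8-nt site contains both shorter ones and was counted once. Of the 12708 tested genes with an annotated 3′ UTR on their most abundant transcript, 598 (4.71%) had an 8-nt site and 10067 had none of the 3. The windows show 3 genes that recur below: Nfe2l2, which encodes the antioxidant factor NRF2; Cd274, the immune checkpoint ligand PD-L1; and Ccnt1, a cyclin of the kinase that releases paused RNA polymerase II. The capitals mark the site, and positions are those of the site in GRCm38, taken from the gene annotation.
Nfe2l2, chr2:75675871-75675878, minus strand: aatgcagaaacACTTTATAagtaactatgc
Cd274, chr19:29388000-29388006, plus strand: attggtgtggcACTTTATtcttttgtgttg
Ccnt1, chr15:98542484-98542490, minus strand: aaaatcatgttACTTTATtcctcccattct

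The libraries held 16294611 to 22974853 estimated counts, a unit in which Salmon splits a read among the transcripts it could have come from. A total of 13906 genes were tested, those that reached 10 counts in 3 or more of all 12 libraries. Values per library are given as scaled counts, the estimated counts divided by the library's size factor, or as length-corrected counts, which are also divided by the mean length of the gene's transcripts in that library. Macrophage markers such as Ptprc, the CD45 gene, and Cd68 were expressed in all 6 libraries. Of 20 endothelial markers, which would come from the cells that shed the EVs, Cldn5 and Sox17 were at 0 in all 6 libraries, Cdh5 held 3.55 to 21.6 scaled counts and Kdr 0 to 2.37. Most of the sum came from Egfl7 at 137 to 249, Eng at 115 to 154, Vwf at 66.7 to 275, Pecam1 at 73.0 to 134 and Rasip1 at 69.8 to 88.5, and the 20 summed to 559 to 835 scaled counts in ctrl-EVs and 571 to 857 in miR-142-5p-EVs.

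Across all genes, cells given miR-142-5p-EVs differed from their controls by small and mostly number-specific amounts. The paired log2 ratio of a gene is log2(scaled count + 1) in the miR-142-5p-EV library minus that in its same-numbered ctrl-EV library. Among 10820 genes whose mean over the 6 libraries reached 50 scaled counts, 24.2% had a ratio of the same sign in all 3 numbers: 1110 genes (10.3%) were higher in 3 of 3 and 1507 (13.9%) were lower in 3 of 3. When the same sign was also asked of length-corrected counts, 699 genes (6.46%) were higher and 1015 (9.38%) lower. Ratios whose signs vary freely also agree in 3 of 3 numbers for a part of the genes. These are therefore not counts of genes changed by the mimic. The ratios had an SD across genes of 0.284, 0.252 and 0.307 in numbers 1, 2 and 3. Across genes, which are not independent replicates, Pearson's r was 0.0913 between numbers 1 and 2, 0.0097 between 1 and 3, and −0.157 between 2 and 3. The last value was −0.294 among the 7008 genes averaging 500 or more, so the low r was not limited to genes with few counts.

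**Figure D1:**
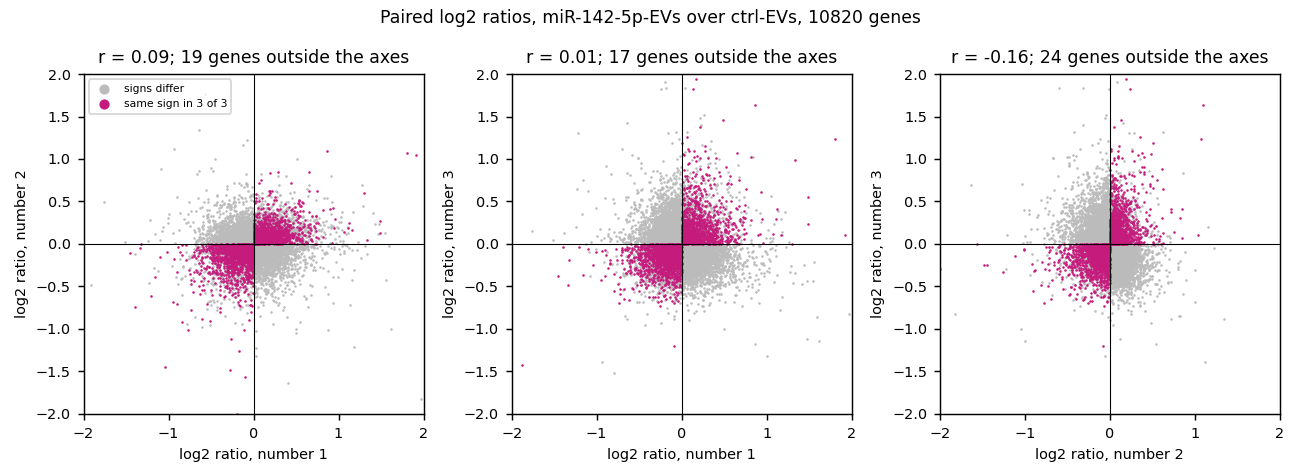
Paired log2 ratios of miR-142-5p-EVs over ctrl-EVs for 10820 genes, with 1 panel for each pair of numbers and 1 point per gene. The axes run from −2 to 2 and leave out 19, 17 and 24 genes; the clouds show little slope, with r of 0.0913, 0.0097 and −0.157.

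The test across genes used DESeq2 with the replicate number as a block, the 12 libraries in 1 fit and the transcript length of each gene as an offset, and a gene with a Benjamini-Hochberg adjusted p under 0.05 was called. In this fit 4 genes were called higher (0.0288% of those tested) and 4 lower (0.0288%). Higher were Atm, a kinase that responds to DNA double-strand breaks, Il1rl1, which encodes ST2, the receptor of the alarmin IL-33, Nav2, a protein linked to the growth of neurites, and Ccnt1. Among the lower were Ddit3, which encodes CHOP, a transcription factor of the integrated stress response, and 2 gene models, Gm20671 and Gm49450. With edgeR's quasi-likelihood test and the same block 0 genes were called, with 893 at an unadjusted p under 0.05 against 815 in DESeq2, and without the block DESeq2 called 1 gene, which was none of the 8. That gene was Gm8430, a processed pseudogene at 89.9 scaled counts in ctrl-EV library 2 and at 0 in the other 5 libraries, named after its values were seen. Without the block Gm20671 was given no p.

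Ddit3, at chr10:127290774-127296288, was the called gene, among those with counts in every library, whose call did not need the length offset. Its scaled counts were 2834, 2492 and 3823 in ctrl-EV libraries 1 to 3 and 2014, 1964 and 3103 in miR-142-5p-EV libraries 1 to 3. Each treated library was below its own control, but the groups overlapped, because library 3 was high in both. The means were 3050 ± 691 and 2360 ± 644 (SD, n = 3), and the paired log2 ratios were −0.49, −0.34 and −0.30. The fitted log2 fold change was −0.38 ± 0.09 (SE; DESeq2 adjusted p = 0.0209), and without the length offset the adjusted p was 0.0256. Ddit3-201, a protein-coding transcript with 91.9% of the gene's counts, was called on its own with a log2 fold change of −0.48 (adjusted p = 0.000117), at 2784, 1969 and 4004 scaled counts in ctrl-EVs and 1848, 1497 and 2944 in miR-142-5p-EVs. Ddit3-202, annotated as a retained intron, was not called and held 101 to 186 counts in the 6 libraries. The 6 libraries of the other mimics held 1840 to 3360 scaled counts of Ddit3, and against them the log2 difference was −0.04 (adjusted p = 1), so the fall was not shown to be particular to miR-142-5p. Ddit3 overlaps Mars, and whether Salmon used the strand of the reads is not given in the sources used here. The call was kept in 2 of 9 refits that each left out a number or a library: without ctrl-EV library 3 (adjusted p = 0.00125) and without miR-142-5p-EV library 2 (adjusted p = 0.0186).

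Atm, at chr9:53439149-53536740, had scaled counts of 2216, 2766 and 1247 in ctrl-EVs and 2574, 2601 and 2304 in miR-142-5p-EVs. On this scale only numbers 1 and 3 were higher, and ctrl-EV library 3 stood lowest of the 6. Length-corrected counts were 1921, 2225 and 1224 in ctrl-EVs and 2780, 3505 and 2089 in miR-142-5p-EVs, higher in 3 of 3. The mean transcript length that Salmon gave the gene was 6887, 7168 and 6194 nt in ctrl-EVs and 5493, 4238 and 6601 nt in miR-142-5p-EVs, so number 2 was higher only after its counts were divided by a shorter length. The fitted log2 fold change was 0.65 ± 0.11 (adjusted p = 0.000189) and 0.32 without the offset (adjusted p = 0.998). With the offset, the Atm call was kept in 9 of 9 refits that left out a library or a number, with log2 fold changes of 0.57 to 0.77. Atm-201 held 80.9% and Atm-206 17.6% of the gene's counts, and neither transcript was called. They are 9819 and 9787 nt long, longer than every mean length above, so the means also took in shorter transcripts. Atm-201 was at 1935, 1940 and 1246 scaled counts in ctrl-EVs and 2059, 1766 and 1935 in miR-142-5p-EVs, lower in number 2. The call therefore does not show a rise of the main transcript in 3 of 3 numbers. Against the other mimics the log2 difference was 0.07.

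Il1rl1, at chr1:40429570-40465415, was the largest rise among the called genes, at low counts. It had 36.3, 33.1 and 30.1 scaled counts in ctrl-EVs and 93.0, 41.1 and 53.9 in miR-142-5p-EVs, so all 3 treated libraries were above all 3 controls. The gene was named for its call in these libraries, so this separation adds no support. The means were 33.2 ± 3.08 and 62.7 ± 27.1 (SD, n = 3). The counts sat on different transcripts in the 2 groups. Il1rl1-201 was at 0, 9.62 and 13.1 scaled counts in ctrl-EVs and 77.1, 34.2 and 53.6 in miR-142-5p-EVs. Il1rl1-202 was at 31.5, 19.2 and 20.1 in ctrl-EVs and at 0 in all 3 miR-142-5p-EV libraries. With 3 counts per library taken as the smallest detectable signal, that is 7.56-fold lower or more. The figure covers counting error and not the split of reads between models, so it does not bound the change of the transcript. Neither transcript was called (adjusted p = 0.105 and 0.333). The mean transcript length of the gene was 4210, 4779 and 5006 nt in ctrl-EVs and 2455, 2792 and 2593 nt in miR-142-5p-EVs. Il1rl1-201 and Il1rl1-202 are 5053 and 5302 nt long, longer than each of the treated means. The treated means thus also took in shorter transcripts, and the move between these 2 models alone does not give them. The log2 fold change was 1.68 ± 0.33 with the offset (adjusted p = 0.00202) and 0.87 without it (adjusted p = 0.991). The call was kept in 1 of 9 refits, without number 2 (adjusted p = 0.00686), and in 4 of them DESeq2 gave the gene no adjusted p. In the libraries of the other mimics Il1rl1 ran from 24.8 to 68.6 scaled counts.

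Nav2 and Ccnt1 were higher in 3 of 3 on both scales by smaller amounts. Nav2, at chr7:48908716-49610090, had 1306, 1618 and 817 scaled counts in ctrl-EVs and 1973, 1904 and 926 in miR-142-5p-EVs, with a log2 fold change of 0.52 ± 0.11 (adjusted p = 0.0113). Ccnt1, at chr15:98538689-98570923, had 2521, 5558 and 1970 scaled counts in ctrl-EVs and 2897, 5741 and 2497 in miR-142-5p-EVs, with a log2 fold change of 0.43 ± 0.10 (adjusted p = 0.0131). In both genes the spread between numbers within a group was wider than the step from control to treated library. Without the length offset the values were 0.35 for Nav2 (adjusted p = 0.884) and 0.19 for Ccnt1 (adjusted p = 0.998). Leaving out a number or a library kept the call of Nav2 in 6 of 9 refits and that of Ccnt1 in 5 of 9.

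Among the transcripts of Ccnt1, Ccnt1-208 held 91.1% of the counts and was not called. Ccnt1-206, which is annotated as a target of nonsense-mediated decay, rose from 11.2, 34.2 and 7.04 scaled counts to 105, 188 and 62.6 (log2 fold change 2.86, adjusted p = 6.67e-06). All 3 treated libraries were above all 3 controls for this minor transcript.

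Gm20671 and Gm49450 are uncertain, because both share most of their sequence with an expressed gene. Gm20671 was at 52.0 scaled counts in ctrl-EV library 1 and at 0 in the other 5 libraries, and 67.1% of its sequence is identical to Pisd. Gm49450 was at 53.0, 31.9 and 0 in ctrl-EVs and 0, 1.28 and 0 in miR-142-5p-EVs, and 89.2% of its sequence matches Tuba1b at 99.6% identity. The first call rested on 1 library and was kept in 0 of 9 refits; the second was kept in 1 of 9.

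**Figure D2:**
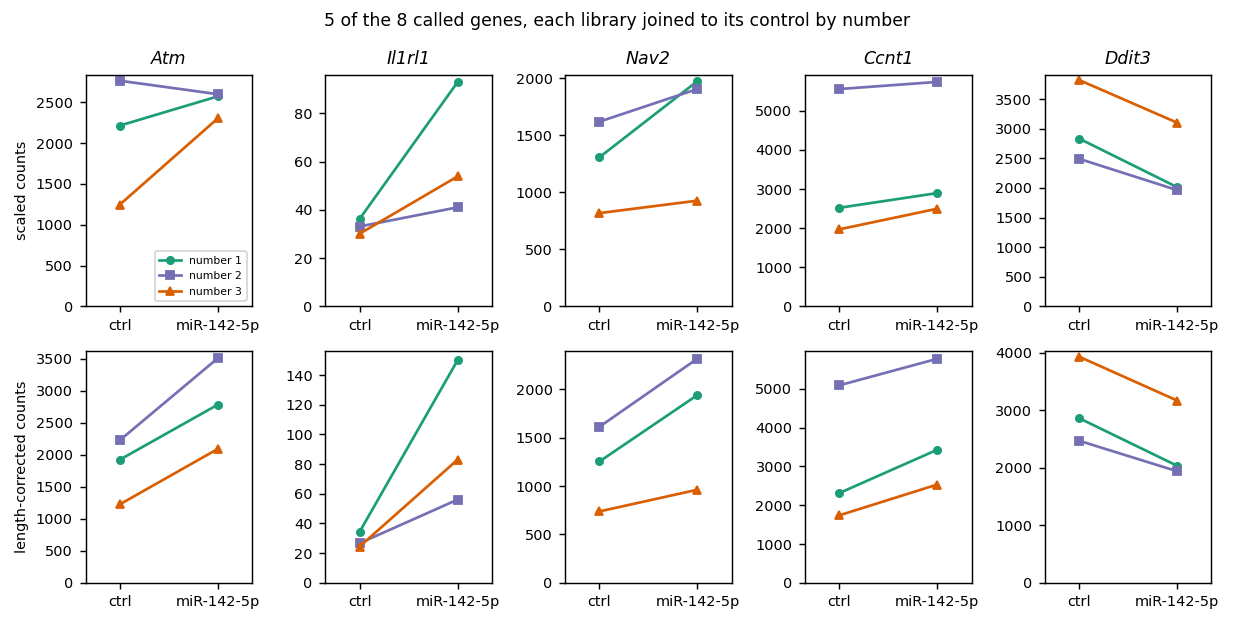
Scaled counts (upper row) and length-corrected counts (lower row) of 5 of the 8 called genes, with 1 point per library and a line joining each miR-142-5p-EV library to the ctrl-EV library of its number. Ddit3 falls in 3 of 3 on both scales, whereas Atm rises in 3 of 3 only after length correction.

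The difference of miR-142-5p-EVs from the mean of the miR-222-3p and miR-183-5p groups, which uses no ctrl-EV library in the contrast, was called for 3 genes (0.0216% of those tested) with the same DESeq2 fit, and for 0 with edgeR, with 271 at an unadjusted p under 0.05. The 3 were Gm20671, Gm49450 and Gm10273, all gene models that share sequence with other genes. None of Atm, Nav2, Ccnt1 and Ddit3 was among them, and Il1rl1 had a log2 difference of 1.16 (adjusted p = 0.0755).

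No marker of macrophage state was called, and some had too few counts to be tested. Arg1, which encodes arginase 1, had 5.88, 7.10 and 0 scaled counts in ctrl-EVs and 3.51, 12.8 and 5.77 in miR-142-5p-EVs, too few to be tested. Nos2, which makes nitric oxide in M1 cells, was at 100, 44.9 and 25.6 in ctrl-EVs and 220, 27.0 and 33.7 in miR-142-5p-EVs. It was higher in numbers 1 and 3 and lower in number 2. Il1b, a cytokine of M1 cells, was at 47.1, 39 and 40.2 in ctrl-EVs and 29.8, 18 and 44.3 in miR-142-5p-EVs, lower in numbers 1 and 2 (log2 fold change −0.35 ± 0.40). Tgfb1, a cytokine of resolution and repair, was at 871, 576 and 832 in ctrl-EVs and 800, 737 and 804 in miR-142-5p-EVs, with a difference well inside the spread between libraries. Of 12 M1 list members with a mean of at least 50, 3 were lower in 3 of 3 numbers (25%, against 13.9% of all genes) and 0 higher (against 10.3%). They were Il23a, a subunit of IL-23, Cd86 and Cd40, both costimulatory molecules. Il23a went from 140, 58.0 and 147 scaled counts to 81.6, 28.2 and 141 (log2 fold change −0.61, adjusted p = 0.79). Among 4 M2 list members of that abundance 1 was higher in 3 of 3 (25%, against 10.3% of all genes) and 0 lower. Of 20 M1 and 22 M2 members listed, 16 and 10 were tested, and none was called. Most of the M2 list was thus not tested.

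Genes listed as targets of miR-142-5p included Nfe2l2, Cd274 and Socs1, a brake on cytokine signalling. Nfe2l2, with an 8-nt site, had 3363, 1852 and 3249 in ctrl-EVs and 2533, 1881 and 2997 in miR-142-5p-EVs, lower in numbers 1 and 3 (log2 fold change −0.18, adjusted p = 0.848). Cd274 was at 913, 1642 and 1130 in ctrl-EVs and 670, 1871 and 1287 in miR-142-5p-EVs, lower in number 1 alone. Socs1 held 0.98 to 10.6 scaled counts in the 6 libraries and was not tested.

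The difference between genes with and without sites changed direction between numbers, in medians and shares taken over genes with a mean of at least 50. The fitted median log2 fold change was 0.03 for genes with an 8-nt site, 0.03 for each class of 7-nt site and 0.10 for the 157 genes with at least 3 sites, against −0.02 for genes with no site. The higher medians came from number 3, where the median paired ratio was 0.12 for genes with an 8-nt site, 0.10 and 0.09 for the 7-nt classes and −0.07 for genes with no site. In number 2 genes with sites lay lower, at −0.04, −0.03 and −0.03 against 0.01. In number 1 the 8-nt class was at −0.01, both 7-nt classes at −0.02 and −0.03, and genes with no site at −0.01. Genes with an 8-nt site were lower in 3 of 3 numbers in 8.80% of cases and higher in 13.5%, and genes without a site in 15.2% and 9.44%. The classes also differed in the length of the 3′ UTR, with a median of 2480 nt for genes with an 8-nt site and 709 nt for genes with none. Among genes with a 3′ UTR of at least 2000 nt the medians were 0.06 for the 1105 with any site and 0.04 for the 1328 without, and 5.61% and 7.61% were lower in 3 of 3. Of the called genes, Ccnt1, which was higher, has the 7-nt site to the seed shown above. These are descriptions of letters in annotated UTRs and not of binding.

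Cholesterol synthesis was the list with the largest share of members higher in 3 of 3 numbers. Of its 22 measured members 10 (45.5%, against 10.3% of all genes) were higher in 3 of 3 and 0 lower, and 0 were called. The median log2 fold change was 0.15, against −0.01 over all genes with a mean of at least 50, the genes on which every list median here was taken, and the median paired ratio was 0.34, 0.13 and 0.01 in numbers 1, 2 and 3. The list thus moved most in number 1 and hardly in number 3. Lss, lanosterol synthase, had 1938, 3568 and 1416 scaled counts in ctrl-EVs and 2777, 4269 and 1573 in miR-142-5p-EVs (log2 fold change 0.41 ± 0.11, adjusted p = 0.169). Stard4, a carrier of cholesterol between membranes, went from 1392, 3127 and 893 to 2030, 3719 and 1065 (0.34 ± 0.15). Against the other mimics the log2 difference was 0.01 for Lss and −0.10 for Stard4. These rises were thus not shown to be particular to miR-142-5p. Also among the 10 were the sensor Insig1 and the enzymes Hmgcs1, Idi1, Cyp51, Msmo1 and Nsdhl. At the other end were Fdps, at 4503, 4468 and 3700 against 5813, 5292 and 2839, and Mvk, at 281, 201 and 288 against 384, 189 and 228, both of which were higher in number 1 and lower in number 3. Fdps has 4 near-identical copies, and its counts are uncertain. Every member except Sc5d, a desaturase of the pathway, had a larger ratio in number 1 than in number 3; Sc5d was named after its values were seen.

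Genes of glycolysis and hypoxia showed the same order of numbers in a stronger form. Their median paired ratio was 0.46, 0.05 and −0.29 in numbers 1, 2 and 3. In 3 of 3 numbers 1 of 22 members was higher (4.55%, against 10.3% of all genes) and 0 lower (against 13.9%). Ankrd37, a target of the hypoxia factor HIF-1, was at 231, 608 and 115 in ctrl-EVs and 566, 831 and 96.2 in miR-142-5p-EVs. Egln3, an oxygen sensor that HIF-1 also induces, was at 114, 192 and 63.9 against 248, 209 and 63.5. Neither was called, and the sign of the list depended on the number looked at.

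In the list of ATF4 and the unfolded protein response, Ddit3 was the called member. Of 23 members 1 was called lower, and the median log2 fold change was −0.01. In 3 of 3 numbers 3 were lower (13.0%, against 13.9% of all genes) and 2 higher (8.70%, against 10.3%), near the shares over all genes. Trib3, a pseudokinase that CHOP induces, had 4696, 2046 and 6344 scaled counts in ctrl-EVs and 3941, 1583 and 5400 in miR-142-5p-EVs, lower in 3 of 3 by paired log2 ratios of −0.25, −0.37 and −0.23, near those of Ddit3, and not called (log2 fold change −0.29 ± 0.31). The other member lower in 3 of 3 was Slc3a2, a subunit of amino acid transporters. Atf4 itself, the factor that drives the list, had 8380, 6814 and 9725 in ctrl-EVs and 8838, 6277 and 8516 in miR-142-5p-EVs, lower in numbers 2 and 3. Higher in 3 of 3 were Eif2ak3, the stress kinase PERK, and the chaperone Hsp90b1, by paired log2 ratios of 0.01 to 0.15 and 0.00 to 0.37. Ddit4, an inhibitor of mTORC1, was higher in numbers 1 and 2, at 1676 and 3142 against 2799 and 4514, and lower in number 3, at 1101 against 948. Atf4, Eif2ak3, Slc3a2 and Hsp90b1 were named after their values were seen.

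Genes of cytosolic and mitochondrial ribosomes were lower in 3 of 3 numbers more often than all genes, and number 3 had the lowest median in both lists. Of 81 cytosolic ribosomal protein genes 17 (21.0%) were lower in 3 of 3 and 0 higher, against 13.9% and 10.3% of all genes, with a median log2 fold change of −0.15 and median paired ratios of −0.17, 0.06 and −0.32. Of 78 mitochondrial ribosomal protein genes 19 (24.4%) were lower and 0 higher, with a median of −0.09 and ratios of 0.00, 0.02 and −0.21. Of 77 nuclear genes of oxidative phosphorylation 9 (11.7%) were lower, a smaller share than of all genes, and 0 higher, with ratios of 0.01, 0.10 and −0.26. Their median log2 fold change of −0.08 changed sign without number 3 (0.03) and without ctrl-EV library 3 (0.05). The proteasome list of 42 genes had 5 lower (11.9%, also a smaller share) and 0 higher. None of these genes was called. Mrps10, of the small mitochondrial subunit, was at 208, 232 and 194 scaled counts in ctrl-EVs and 183, 204 and 181 in miR-142-5p-EVs (log2 fold change −0.55 ± 0.16, adjusted p = 0.222). Without the length offset the value for Mrps10 was −0.15. Its mean transcript length was 805, 829 and 711 nt in ctrl-EVs and 1039, 1010 and 987.5 nt in miR-142-5p-EVs. Transcripts annotated as retained introns held 40% to 64% of its counts. Mrps12 went from 131, 75.7 and 162 to 98.3, 59.1 and 113 (−0.42). Rpl10a, which has a near-identical copy, went from 8249, 7138 and 8581 to 6332, 8523 and 5574, lower in numbers 1 and 3 and higher in number 2.

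**Figure D3:**
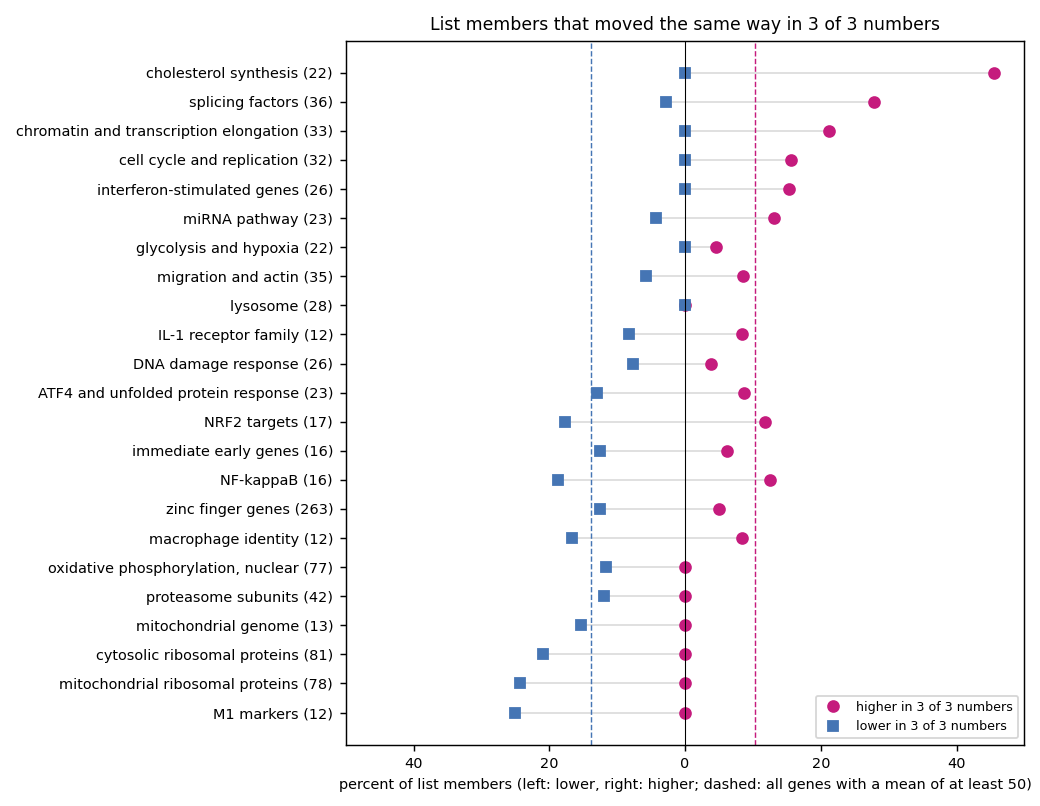
Share of list members with a mean of at least 50 scaled counts that were lower (left) or higher (right) in 3 of 3 numbers, with 2 points per list and the number of genes in brackets. Dashed lines mark the shares over all genes, 13.9% and 10.3%; cholesterol synthesis reaches 45.5% on the right.

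Genes that act on chromatin and on splicing were higher in 3 of 3 more often than all genes. Of 33 chromatin and transcription elongation genes 7 (21.2%, against 10.3% of all genes) were higher in 3 of 3 and 0 lower, with a median log2 fold change of 0.10. That median was 0.07 without the length offset and 0.05 when retained-intron transcripts were also left out, and it ran from 0.041 without number 3 to 0.155 without miR-142-5p-EV library 2. Dnmt3a, a de novo DNA methyltransferase, had 4466, 3839 and 3671 scaled counts in ctrl-EVs and 5198, 4084 and 4462 in miR-142-5p-EVs (log2 fold change 0.36 ± 0.12, adjusted p = 0.446). Also among the 7 were the maintenance methyltransferase Dnmt1, the heterochromatin protein Cbx5, the histone methyltransferases Setdb1 and Kmt2d and the acetyltransferase Ep300. Of 36 splicing factors 10 (27.8%) were higher and 1 lower in 3 of 3, with a median of 0.02 that turned to −0.02 without ctrl-EV library 2 and was 0.00 without miR-142-5p-EV library 3 or without retained-intron transcripts. Prpf8, a core protein of the spliceosome, was at 11370, 15690 and 10520 in ctrl-EVs and 12410, 17030 and 12820 in miR-142-5p-EVs (0.17 ± 0.07, adjusted p = 0.714). The log2 difference from the other mimics was −0.05 for Dnmt3a and 0.04 for Prpf8. None of the members of these lists was called.

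Genes of the miRNA pathway had a median log2 fold change of 0.12, which came from number 3, with median paired ratios of −0.04, −0.02 and 0.30, and was −0.05 without number 3 and −0.03 without ctrl-EV library 3. Of the list 3 of 23 were higher (13.0%) and 1 lower (4.35%) in 3 of 3, against 10.3% and 13.9% of all genes. Ago3, an Argonaute, was at 964, 1644 and 700.2 in ctrl-EVs and 1130, 1623 and 1155 in miR-142-5p-EVs. Tnrc6b, an Argonaute partner, was at 1956, 2565 and 1273 against 1959, 2507 and 2024, so its difference came from number 3 alone. Interferon-stimulated genes had 4 of 26 higher (15.4%, against 10.3% of all genes) and 0 lower. Oas3, a sensor of double-stranded RNA, went from 1851, 1353 and 1578 to 2419, 1770 and 1733 (0.32 ± 0.14, adjusted p = 0.80). Among NRF2 targets 2 of 17 were higher (11.8%) and 3 lower (17.6%), near the shares of 10.3% and 13.9% over all genes. Slc7a11, the cystine importer, went from 1040, 202 and 554 to 1551, 207 and 787, with a step in numbers 1 and 3 and almost none in number 2 (0.47 ± 0.13, adjusted p = 0.169). The log2 difference from the other mimics was 0.05 for Oas3 and 0.01 for Slc7a11. The IL-1 receptor family and the DNA damage list had 1 called member each, Il1rl1 and Atm. The median log2 fold change was −0.07 over the 12 genes of the first list with a mean of at least 50, without Il1rl1, and 0.07 over the 26 of the second, with Atm.

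**Figure D4:**
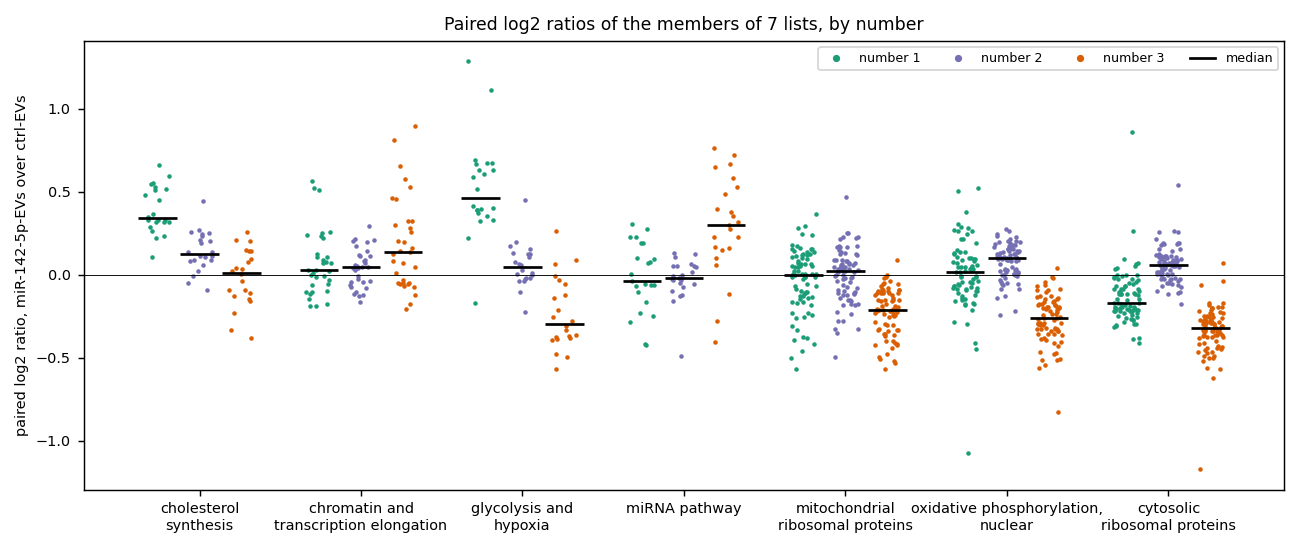
Paired log2 ratios of miR-142-5p-EVs over ctrl-EVs in 7 gene lists, with 1 point per gene with a mean of at least 50 scaled counts, a colour per number and a black line at each median. In cholesterol synthesis the medians step down from 0.34 in number 1 to 0.01 in number 3, and in the cytosolic ribosomal proteins the medians of numbers 1 and 3 lie below 0 and that of number 2 above it.

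Single genes were ranked by the weakest of their ratios, and the 20 taken from the ends of that order had means of 51.8 to 579 scaled counts over the 6 libraries, under 100 in 9 of the rises and 6 of the falls. The 10 rises with the largest weakest ratio, over 3 numbers and both scales, had a weakest log2 ratio of at least 0.35, and none was called. They included Ptk6, a non-receptor tyrosine kinase, at 29.4, 89.9 and 29.2 scaled counts in ctrl-EVs and 52.7, 119 and 60.6 in miR-142-5p-EVs (log2 fold change 0.74 ± 0.29, adjusted p = 0.664). Kl, the klotho gene, was at 45.1, 95.8 and 32.0 against 64.9, 125 and 60.6. In the 6 libraries 97.1% to 100% of the Kl counts sat on transcript annotated as a retained intron, so the values do not show a rise of its coding mRNA. Iqsec3 was at 28.4, 80.4 and 27.4 against 43.0, 105 and 45.2, and the olfactory receptor gene Olfr607 at 42.2, 78.1 and 39.3 against 63.2, 110 and 69.3. The log2 difference from the other mimics was −0.04 for Ptk6, 0.16 for Kl, 0.05 for Iqsec3 and −0.003 for Olfr607. The remaining 6 were Gm43064, Gm17131, 9230113P08Rik, Gm48082, Gm48498 and Gm17022. All but Gm17022 share near-identical sequence with other genes, up to 25 for Gm17131, and are uncertain. Gm43064 overlaps Ap4b1, the gene that it matches. Gm17022, a processed pseudogene, overlaps Pcid2 and is also uncertain, because use of the strand by Salmon is not given.

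The 10 falls had a weakest ratio of −0.35 or further from 0, and none was called either. Klf2, a factor that restrains inflammatory genes in myeloid cells, had 64.7, 76.9 and 206 scaled counts in ctrl-EVs and 38.6, 55.2 and 137 in miR-142-5p-EVs (log2 fold change −0.62 ± 0.27, adjusted p = 0.76). Lcn2, lipocalin 2, an iron-sequestering protein of innate immunity, was at 489, 272 and 1288 against 219, 208 and 998, with ratios of −1.16, −0.39 and −0.37. The level of Lcn2 differed more between numbers than between groups. Chtf8, a subunit of a clamp loader, had the lowest ratios in scaled counts, from 401, 136 and 1024 to 108, 6.42 and 382, but a near-identical gene model of the same name shares its reads and its values are uncertain. Lrfn4 was at 82.4, 76.9 and 92.2 against 42.1, 47.5 and 68.3, and Cfap74, a ciliary gene, at 82.4, 104 and 114 against 49.1, 60.3 and 70.3. Both were chosen for falls in every pair, so the separation of their groups adds no support. The libraries of the other mimics held 48.5 to 103 scaled counts of Lrfn4 and 53.5 to 110 of Cfap74. The log2 difference from the other mimics was 0.03 for Klf2, 0.15 for Lcn2, −0.17 for Chtf8, −0.41 for Lrfn4 and −0.40 for Cfap74. The others were Gm16531, Gm48551, Aig1, AL731706.1 and 2310039H08Rik, of which Gm16531 and AL731706.1 share near-identical sequence with another gene. For AL731706.1 that gene is Mkks, which it overlaps. Just outside the rule were Gpr157, with a weakest ratio of 0.32, and Dusp28, with −0.33.

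At the level of transcripts 47135 were tested, and 61 were called higher (0.129%) and 67 lower (0.142%), in 125 genes of which 3 had been called themselves. With edgeR 0 were called, with 2455 at an unadjusted p under 0.05 against 3229 in DESeq2, and without the block DESeq2 called 36. Of the 128 called transcripts 31 were at 0 in all 3 ctrl-EV libraries and 28 at 0 in all 3 miR-142-5p-EV libraries. Of the 128, 63 had a mean of at least 50 scaled counts, 26 higher and 37 lower.

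Errfi1, which encodes a feedback inhibitor of the EGF receptor, had a called transcript without a change of the gene. Errfi1-202 was at 190, 83.4 and 348 scaled counts in ctrl-EVs and at 0 in all 3 miR-142-5p-EV libraries (DESeq2 adjusted p = 8.46e-11). At a floor of 3 counts per library this is 66.3-fold lower or more. That figure covers counting error and not the split of reads between models, so it does not bound the change of the transcript. In ctrl-EVs Errfi1-202 held 71.1%, 37.1% and 94.4% of the gene's counts. Errfi1-201 was at 77.3, 139 and 20.1 in ctrl-EVs and 239, 242 and 339 in miR-142-5p-EVs. Nearly all reads of the gene in treated cells were assigned to 1 of the 2 models, which are 3036 and 3043 nt long with 4 exons each, while the log2 fold change of the gene was −0.03. In the 6 libraries of the other mimics Errfi1-202 ran from 0 to 245 and Errfi1-201 from 0 to 353 scaled counts, so the assignment to the 2 models also varied there.

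Eif4g1-218, of the translation initiation scaffold eIF4G1, was at 0, 2.14 and 0 scaled counts in ctrl-EVs and 130, 281 and 258 in miR-142-5p-EVs, where it made up 1.23% to 2.90% of the gene. Mlf2-201 went from 69.1, 53.4 and 28.2 to 142, 216 and 153, beside Mlf2-202, which carries 86.2% of the gene. Naa40-204, of a histone N-terminal acetyltransferase, went from 148, 152 and 88.5 to 23.0, 43.4 and 41.7, and Snapin-204, a decay-annotated transcript of a synaptic vesicle protein, from 492, 143 and 198 to 96.5, 58.2 and 68.5. In these 4 the adjusted p was 0.00189, 0.000425, 0.00643 and 0.00265. Their groups did not overlap, as in 45 of the 128 called transcripts, but they were taken for their large changes, so this adds no support. In the libraries of the other mimics Eif4g1-218 ran from 0 to 225 scaled counts and Mlf2-201 from 56.1 to 146. Naa40-204 ran there from 36.9 to 66.8 and Snapin-204 from 78.8 to 457. Without the block Errfi1-202 (adjusted p = 4.74e-19), Mlf2-201 (0.0150) and Naa40-204 (0.00381) were called, and Eif4g1-218, Snapin-204 and Ccnt1-206 were not. Man2c1-211 rose in numbers 1 and 3, to 275 and 110 scaled counts, and was at 0 in the other 4 libraries. Mms19-202 and Mtmr12-202 were at 98.6, 177 and 201 and at 86.4, 66.3 and 198 in ctrl-EVs, and in miR-142-5p-EVs at 35.4 and 22.1 in number 1 and at 0 in numbers 2 and 3.

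Of the 5 called rises and 5 called falls with the largest fitted changes, all but Errfi1-202 were seen in only 1 or 2 libraries of a group. Serpina11-202 was at 0 in ctrl-EVs and at 79.7, 0 and 89.4 in miR-142-5p-EVs, Zdhhc21-206 at 23.9, 0 and 37.7, Fam126b-201 at 0, 9.13 and 42.7, Ppm1b-208 at 0, 2.28 and 39.7, and Cyc1-207 at 0, 11.4 and 0. Rbm47-202 at 16.1, Mtm1-205 at 21.4 and Zranb1-204 at 19.2 and 11.1 were seen in 1 or 2 ctrl-EV libraries and at 0 in miR-142-5p-EVs, and Ctnna1-210 was at 154, 58.8 and 0 in ctrl-EVs.

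**Figure D5:**
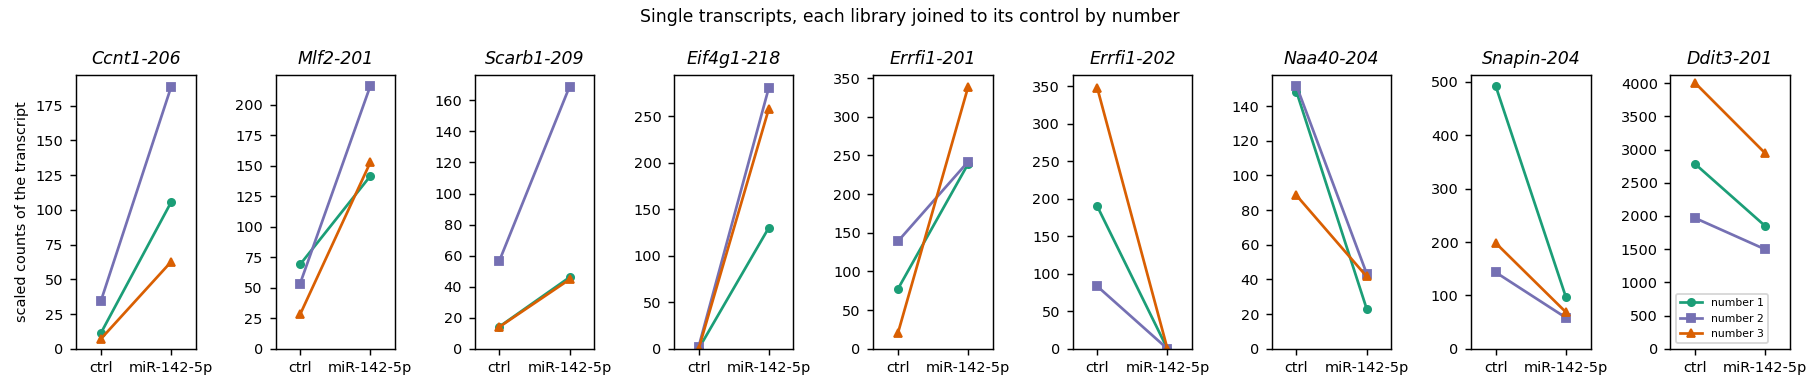
Scaled counts of single transcripts, with 1 point per library and a line joining each miR-142-5p-EV library to the ctrl-EV library of its number. Errfi1-202 goes to 0 in 3 of 3 pairs and Ccnt1-206 goes up in 3 of 3.

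Transcripts annotated as retained introns were higher in 3 of 3 more often than transcripts as a whole. Such a transcript keeps an intron and is usually held in the nucleus or degraded, and a poly(A) library contains some of them as partly processed RNA. Among the 22807 transcripts with a mean of at least 50 scaled counts, 10.9% were higher and 17.7% lower in 3 of 3 numbers. Of the 3416 annotated as retained introns 849 (24.9%) were higher and 246 (7.20%) lower, with a median log2 fold change of 0.12 and median paired ratios of 0.12, 0.09 and 0.14. Of the 16582 protein-coding transcripts 7.82% were higher and 20.3% lower, with a median of −0.07. Unlike the gene lists above, the retained-intron class had a median of similar size in each number. Calls were not more frequent in that class, with 17 of 11659 tested transcripts called (0.146%) against 0.339% of protein-coding ones. Of the 17 called 15 were higher, among them Scarb1-209, of the HDL receptor, at 14.2, 56.7 and 14.1 scaled counts in ctrl-EVs and 46.1, 169 and 44.7 in miR-142-5p-EVs.

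Summed over a library, retained-intron transcripts held 3.91%, 5.76% and 3.79% of the estimated counts in ctrl-EV libraries 1, 2 and 3 and 4.28%, 6.19% and 4.22% in miR-142-5p-EV libraries 1, 2 and 3. The share was higher in 3 of 3, by 0.411 ± 0.0335 percentage points (SD, n = 3 pairs), and an exact two-sided sign permutation test gave p = 0.25, the smallest it can give with 3 pairs. Number 2 was high in both groups. Against the mean of the other mimics' libraries of that number the share was higher in 1 of 3, the median log2 difference of the class was 0.00, and in each number the ctrl-EV library was the lowest of the 4. When retained-intron transcripts were left out of the gene sums, which also left out the length offset, Ddit3 was still called (adjusted p = 0.0190) and Atm, Il1rl1, Nav2 and Ccnt1 were not. The part of RNA processing or RNA quality in these differences was not tested.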

How the data were processed

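The 6 libraries were prepared from polyadenylated RNA with a stranded kit. Per Ensembl mouse transcript, the deposited files give an estimated count from Salmon, not normalized between libraries, beside an effective length and a TPM value that the authors' Salmon run scaled to a common sum. Reads shared by several transcripts are split by estimate, so near-identical genes are uncertain. Of 118783 transcripts 98.2% matched the GRCm38 annotation, in 35865 genes. Sums of estimated counts by gene were rounded; the TPM values weighted the mean transcript length. The smallest detectable signal was set at 3 counts, 0.131 to 0.185 CPM, which covers counting error only. No library pair held identical values (0 pairs).

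Genes reaching 10 counts in 3 or more of the 12 libraries were tested with DESeq2 1.42.0 (R 4.3.3, two-sided Wald test, number as a block, length offset, adjusted p under 0.05), and edgeR 4.0.16 was an alternative. The block follows the numbers in the sample titles: deviations of same-numbered libraries from their group means correlated at 0.461 or more across genes in 18 pairs. Near-identical copies were sought with BLAST+ 2.17.0 (at least 95% identity over at least 50% of a transcript). Scripts were tested on simulated data. Alternatives left out the block, the offset, the filter, other groups or single libraries, or used TMM factors.

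The genes named were markers and targets (among them Arg1, Tgfb1, Nos2, Il1b, Socs1, Nfe2l2 and Cd274), called genes, the 10 rises and 10 falls with the largest weakest ratio over 3 numbers and 2 scales, the extremes and called members of gene lists, the called transcripts with the largest changes, and transcripts with at least 5% of a called gene. Other list members named in a count of genes higher or lower in 3 of 3 were chosen after their values were seen. Members and lists were chosen with earlier results of these data known. Set tests were not run; lists are described by counts. Results for some genes that the rule names are not reported here.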

Additional observations from a re-analysis of the deposited data

Results flagged for a closer look

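In the DESeq2 contrast of miR-142-5p-EVs with the mean of the miR-222-3p and miR-183-5p groups, 3 gene models differed between the groups. Gm20671 had a fitted log2 difference of −22.4 and Gm49450 of −5.69; with libraries at 0, these fitted values are no bound on a fold change. Gm10273 had −3.77, with 0.88, 5.14 and 0.96 scaled counts in miR-142-5p-EVs, 6.87, 10.6 and 6.39 in ctrl-EVs and 1.80 to 106 in the libraries of the other mimics. It shares near-identical sequence with 5 other genes. With edgeR 0 genes were called in this contrast.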

How the results depend on the processing

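With the replicate block left out, 1 gene and 36 transcripts were called in place of 8 and 128, and 1 gene in place of 3 against the other mimics. The gene was Gm8430 in both contrasts. Atm, Il1rl1, Nav2, Ccnt1, Ddit3 and Gm49450 lost their call, Gm20671 had no p, and Cd274 changed sign to 0.0384. With edgeR and the block the counts were 0, 0 and 0. With only the 2 groups in the fit 1 gene and 43 transcripts were called. Without the offset 4 genes were called, without a filter 20 genes, 948 transcripts and 27 genes against the other mimics, and with at least 50 counts in 6 libraries 4, 30 and 0. TMM factors gave 8, 115 and 3. Chosen after the data were seen were, for the contrast with the other mimics, the last 3 settings and the refits without a ctrl-EV library (6, 4 and 2 genes), and 3 settings more: no offset with edgeR (0 and 0 genes), no retained-intron transcripts (4 genes, all lower) and neither offset nor block (1 and 1). Mvk changed sign to 0.0185, 0.0144 and 0.0589 without the offset, the last 2 with edgeR and without the block, where Cd274 was at 0.0544. The cause of these shifts was not tested. Leaving out a number or a library gave 2 to 63 genes (2 without number 1; 63 without ctrl-EV library 2; 53 without ctrl-EV library 3; 40 without miR-142-5p-EV library 2; 27 and 14 without number 2 or 3; 25 without ctrl-EV library 1; 5 and 4 without miR-142-5p-EV library 1 or 3), 120 to 691 transcripts and 0 to 6 genes against the other mimics. Over these refits the log2 fold change ran from −0.116 to 0.163 for Tgfb1, −0.0402 to 0.531 for Nos2, −0.234 to 0.202 for Cd274, −21.8 to 0.0797 for Gm20671 (from −20.1 in the 4 refits that gave it an adjusted p), −0.309 to 0.143 for Mvk, −0.131 to 0.303 for Fdps and −0.518 to 0.0205 for Trib3. List medians ran from 0.0424 to 0.314 for cholesterol synthesis, −0.258 to −0.0254 for cytosolic ribosomal proteins, −0.149 to 0.0462 for oxidative phosphorylation and −0.108 to 0.267 for glycolysis and hypoxia.

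The count of genes moving the same way in all 3 numbers was 2617, and 2691 with the offset, 2613 with TMM factors, 2604 by library totals and 3448 with no minimum mean. Low counts limit Arg1, Socs1 and Il1b, and with 3 pairs an exact sign permutation test of a single value cannot give p under 0.25.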
